A study of Mus musculus with 24 samples.

Results

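Kidney and liver of mice carrying a SENCR bacterial artificial chromosome were compared gene by gene. Each tissue was represented by 3 libraries, kidney replicates 1 to 3 and liver replicates 1 to 3, which are 6 of the 24 libraries of the series. The tissue and the replicate number were taken from the sample labels. The other 18 libraries came from aorta, brain, heart, lung, spleen and stomach of such mice, 3 per tissue, and served to find genes that were high in kidney and liver together. All 8 groups carried the transgene by their sample titles and none was described as treated. Library names carry the prefix SR-KI, which the labels do not explain. No group without the transgene was used here, and the labels gave no strain, age or sex and no record of which libraries came from one animal. The samples were described as biological triplicates, and p-values measure the spread between these libraries. SENCR is a human long non-coding RNA that lies antisense to FLI1.

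Kidney and liver both clear, convert and recycle small molecules, and they share enzymes of gluconeogenesis and of amino acid breakdown. The kidney tubule is known for the transport of salt, water and solutes. Its cells arise from intermediate mesoderm and carry transcription factors such as PAX2 and PAX8. The hepatocyte is known for the urea cycle, for plasma proteins and for fatty acid and sterol metabolism, under factors such as FOXA2 and CEBPA. A1CF, an RNA-binding partner of the APOBEC1 enzyme that edits apolipoprotein B mRNA, is known from both organs and was taken as the marker of the pair.

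Values were FPKM, fragments scaled to gene length and to the fragments assigned in the library. The table held 7493 genes under human symbols, since a human genome had served for the alignment. A mouse gene is therefore seen only through stretches that aligned, and levels were compared between tissues within a gene. Assigned reads recovered from the FPKM steps numbered 331777, 320638 and 347385 in kidney and 209010, 215012 and 193897 in liver. Across the 24 libraries they ran from 193897 to 642111. On the log2(FPKM + 1) scale, the 3 kidney libraries correlated at 0.956 to 0.957 across genes and the 3 liver libraries at 0.939 to 0.943, against 0.858 to 0.867 between the tissues. Every pair of replicates differed by more than counting noise: chi-square divided by its degrees of freedom was 2.41 to 2.59 among kidney pairs and 2.67 to 2.90 among liver pairs. These shallow depths make a gene with a few reads uncertain, and folds against 3 reads per library allow for counting error only. The 95% intervals of differences come from the spread between libraries. In bulk tissue, fewer cells of a type and less RNA per cell cannot be told apart.

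A level of 1 FPKM or more in 3 or more of the 24 libraries was required, and of the 4260 genes that had it, 540 (12.7%) were higher in kidney and 233 (5.47%) were lower. A call needed 2 things, a limma adjusted p below 0.05 and kidney and liver means at least 1 apart on the log2(FPKM + 1) scale, and differences are kidney minus liver. In all, 773 genes (18.1%) were called, and for 720 of them (16.9% of those tested) the 3 kidney libraries did not overlap the 3 liver libraries. The median difference over all 4260 genes was 0.09. Of the genes higher in kidney, 159 were at 0 in all 3 liver libraries, and of those lower in kidney, 37 were at 0 in all 3 kidney libraries. Quantile normalization gave 396 higher and 315 lower, so that 55.7% of its calls were higher against 69.9%. At least 30 recovered reads over the 6 libraries stood behind 409 of the higher and 171 of the lower calls, a limit chosen after seeing the data. Among the 4260 genes, 566 were at 0 in all 6 kidney and liver libraries and could not be called. The shares of 12.7% and 5.47% include them. With the filter set on these 6 libraries, 2705 genes were tested, of which 534 were higher and 237 were lower.

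**Figure D1:**
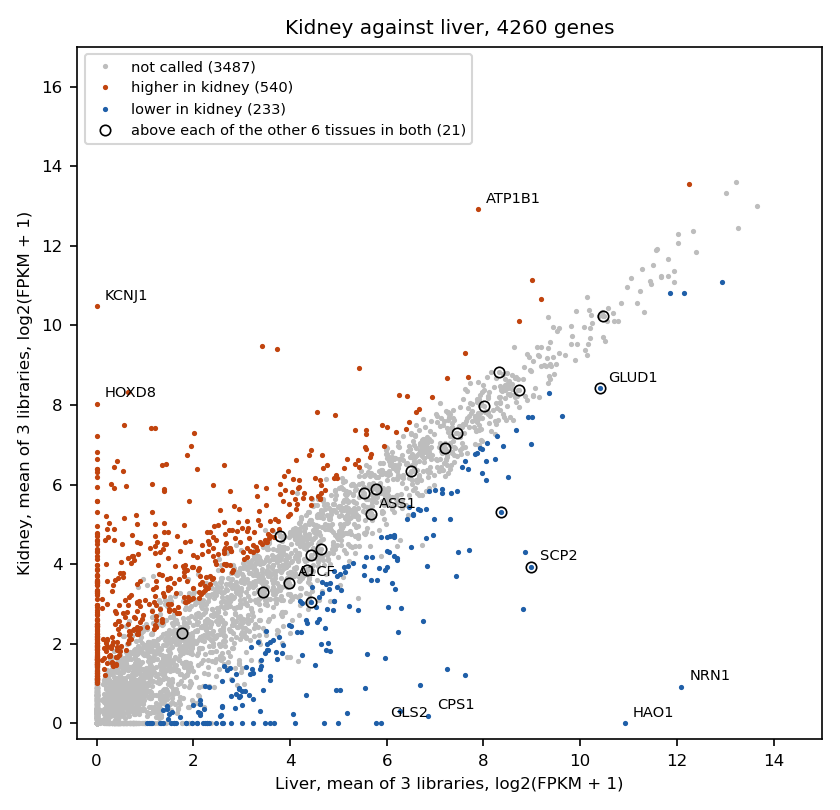
Mean log2(FPKM + 1) of 3 kidney libraries (vertical) against that of 3 liver libraries (horizontal) for 4260 genes, with 540 called higher and 233 called lower in kidney in colour. Circles mark 21 genes called above each of the other 6 tissues in both organs. KCNJ1 and HOXD8 lie at 0 on the liver axis and HAO1 at 0 on the kidney axis.

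The labels were checked against marker genes of both organs. PAX2, a transcription factor of the nephron lineage, had 32.5, 42.2 and 41.2 FPKM in kidney libraries and was at 0 in the 3 liver libraries. PAX8, its relative, had 20.1, 25.4 and 15.6 FPKM in kidney and was likewise at 0 in liver. CPS1, the entry enzyme of the urea cycle, had 0, 0 and 0.477 FPKM in kidney and 87.3, 136 and 129 FPKM in liver. Each of the 3 was thus at or near 0 in the other organ. CPS1 was at 0 in the other tissues as well, so it passed the filter through liver alone, which fixed its direction. Several defining genes of the hepatocyte were at or near 0 in both tissues. ALB, encoding albumin, had 1.32, 0 and 1.26 FPKM in kidney and 0, 0 and 2.26 FPKM in liver, with at most 1 read per library. APOA1, TTR, SERPINA1, HNF4A and PCK1 also had no more than 1 read in any kidney or liver library.

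The leading genes on the kidney side were a potassium channel and HOX genes. KCNJ1, the ROMK potassium channel of the thick limb and collecting duct, had 1933, 954 and 1606 FPKM in kidney and was at 0 in all liver libraries. Set against 3 reads per liver library, its mean was at least 283-fold higher in kidney, and the fitted difference was 10.49 (SE 0.35, limma adjusted p = 1.25e-14). KCNJ1 neighbours FLI1 and SENCR in the human genome, and reads of mouse Kcnj1 and of any human copy on the transgene cannot be told apart. The other 11 genes of the largest positive differences were HOXD8, HOXD10, HOXC10, HOXA7, HOXB9, POU3F3, CKMT1B, EMX2, HOXD9, HOXC6 and HOXA5. CKMT1B, a mitochondrial creatine kinase, had 113, 63.2 and 79.8 FPKM in kidney and was at 0 in liver, though human CKMT1A is a near-identical copy that shares its reads. On the liver side the leaders were NRN1, HAO1, CPS1, FGA, IGF1, GJB1, SLC38A3, GLS2, FOXA2, RAPGEF4, SCP2 and BHMT. Fitted differences of genes at 0 in a tissue depend on the added 1 FPKM and are no bound on the fold. By the rule that chose them, the kidney and liver libraries of these 24 genes did not overlap.

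**Figure D2:**
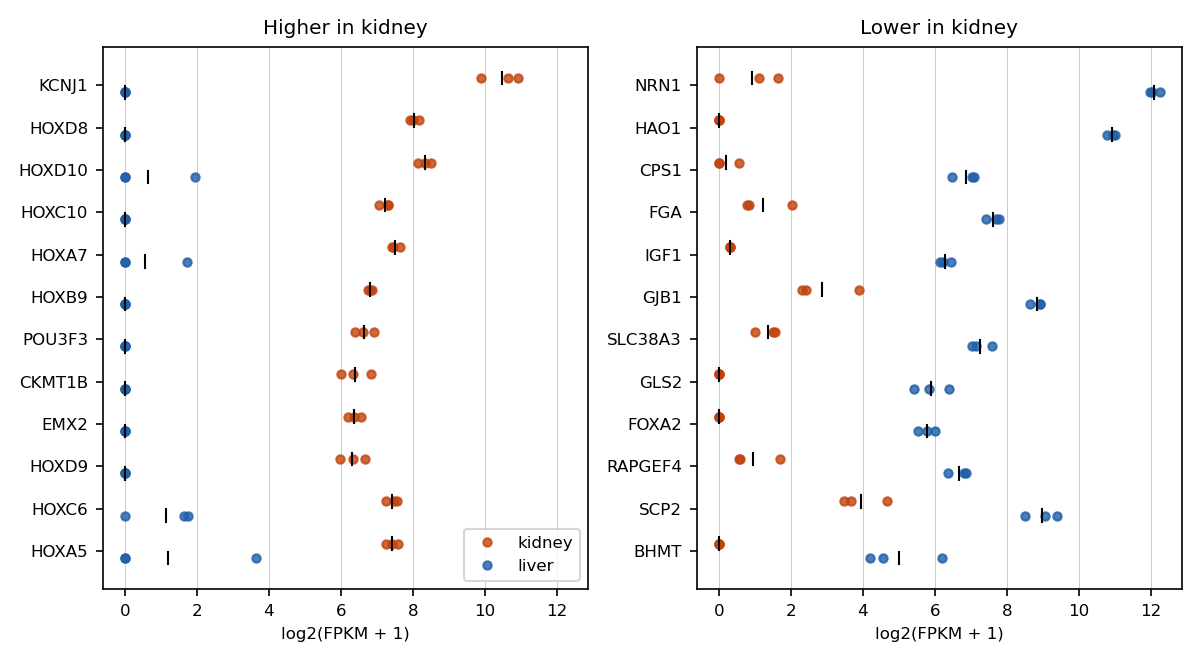
Values of each library as log2(FPKM + 1) for the 12 genes with the largest positive and the 12 with the largest negative differences, with kidney drawn above liver in each row and short lines at the means. No kidney point overlaps a liver point within a gene.

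HOX genes, the transcription factors that lay out the body axis, were nearly all higher in kidney. Of 25 HOX genes tested, 23 were higher and none was lower, against 12.7% of all genes higher, and their median difference was 4.61 against 0.09 over all genes. With genes at 0 in a tissue set to 3 reads per library there, these medians were 3.19 and 0. HOXD8 had 258, 239 and 289 FPKM in kidney and was at 0 in liver, a difference of 8.04 (SE 0.63, limma adjusted p = 6.11e-09). HOXD10 had 365, 283 and 326 FPKM in kidney and 0, 0 and 2.89 FPKM in liver, a difference of 7.69 (SE 0.73, limma adjusted p = 8.67e-08). The liver value rested on 1 read in 1 library. HOXC10 had 159, 133 and 157 FPKM in kidney and was at 0 in liver, and HOXB9 had 106, 111 and 116 FPKM in kidney and was at 0 in liver as well. All 4 clusters took part, with 6 of 8 HOXA, 6 of 6 HOXB, 6 of 6 HOXC and 5 of 5 HOXD genes higher in kidney. Summed over genes tested, the 4 clusters had 810, 1028, 779 and 1458 reads in kidney, against 7, 15, 3 and 1 reads in liver, in the order A to D.

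Not every HOX gene was called. HOXA2 and HOXA4, of the anterior groups, were not called: HOXA2 had 7.15, 5.55 and 6.83 FPKM in kidney and 0, 2.76 and 3.06 FPKM in liver, a difference of 1.59 (SE 0.69, limma adjusted p = 0.109), and HOXA4 was at 0 in both tissues. HOXA3, HOXB2, HOXB3, HOXC11 and HOXD3 did not pass the filter on level, with 1, 2, 15, 1 and 1 reads over the 3 kidney libraries. HOXA5, at the front of the called HOXA genes, had 193, 151 and 171 FPKM in kidney and 11.5, 0 and 0 FPKM in liver, where 1 library held all of the liver reads. The count of 23 was the same with TPM, median-ratio and quantile scaling and with voom on recovered reads, and was 22 when the 6 libraries were fitted alone.

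**Figure D3:**
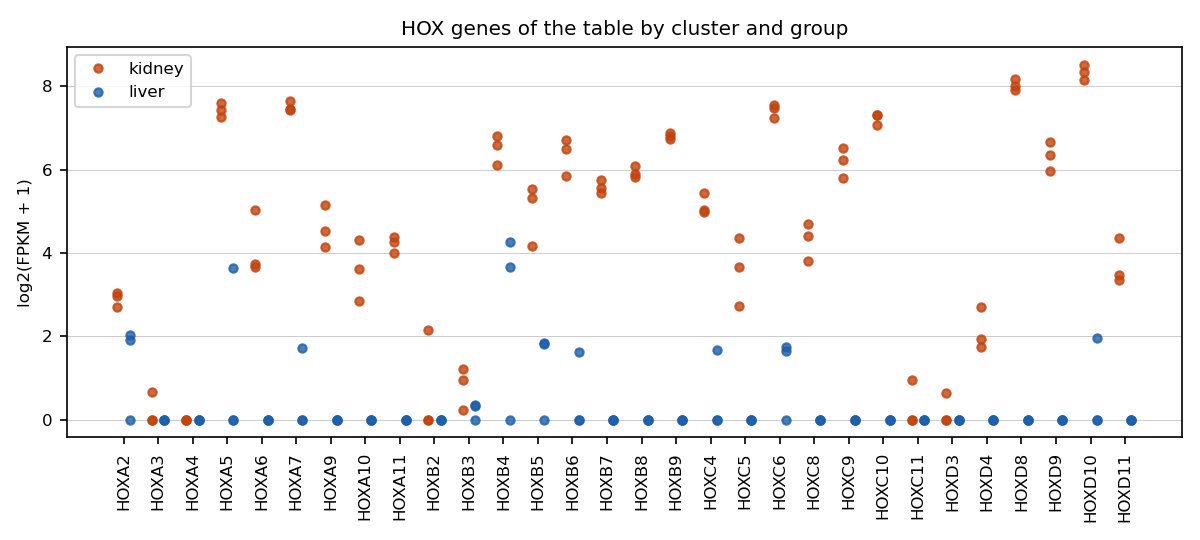
Values of each library as log2(FPKM + 1) for the 30 HOX genes in the table, ordered by cluster and group, with kidney points left of liver points. Kidney points reach above 8 for HOXD8 and HOXD10, and most liver points lie at 0.

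Transcription factors of kidney development and nephron segments were the next group. Of 28 tested, 17 were higher in kidney and 1, NFIB, was lower, against 12.7% of all genes higher and 5.47% lower. Their median difference was 1.58, or 0.66 with genes at 0 set to 3 reads per library, against 0.09 and 0 over all genes. POU3F3, a factor of the loop of Henle and distal tubule, had 120.3, 82.5 and 96.8 FPKM in kidney and was at 0 in liver, at least 30.5-fold higher. EMX2, which the urogenital system needs to form, had 71.999, 81.7 and 94.3 FPKM in kidney and was at 0 in liver, a difference of 6.38 (SE 0.36, limma adjusted p = 3.09e-11). The kidney libraries of both genes lay far above any liver library. MEIS2, a partner of HOX proteins on DNA, was found in both tissues. It had 73.7, 58.6 and 74.7 FPKM in kidney and 19.98, 13.9 and 18.5 FPKM in liver, a difference of 1.93 (SE 0.38, limma adjusted p = 0.000587). ESRRG, an orphan nuclear receptor, had 36.9, 34.6 and 23.2 FPKM in kidney and 0, 1.45 and 1.29 FPKM in liver, a difference of 4.17 (SE 0.31, limma adjusted p = 2.33e-09). NFIB, a nuclear factor used widely in development, had 57.9, 56.9 and 57.9 FPKM in kidney and 125, 127 and 125 FPKM in liver, a difference of -1.11 (SE 0.26, limma adjusted p = 0.00258). SALL1, a zinc finger factor of the nephron progenitor, had 33.8, 28.6 and 22.6 FPKM in kidney and 8.94, 7.82 and 20.2 FPKM in liver. Its call, with a limma adjusted p of 0.0249, was lost with TPM, median-ratio and quantile scaling, in the fit of the 6 libraries and without kidney replicate 1 or 2 or liver replicate 1 or 2. Among progenitor factors with no call were SIX2 and OSR1.

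Genes of the distal nephron, which reclaim sodium, potassium, calcium and magnesium, were higher in kidney for 11 of 17 tested, and none was lower, against 12.7% of all genes higher and 5.47% lower. Their median difference was 1.64, or 0.71 with genes at 0 set to 3 reads per library. ATP1B1, the beta subunit of the sodium pump, had 8216, 7513 and 7505 FPKM in kidney and 201, 204 and 314 FPKM in liver, a difference of 5.04 (SE 0.35, limma adjusted p = 7.4e-10). Every kidney value lay above every liver value. SLC12A1, the thick limb cotransporter that loop diuretics block, had 20.3, 23.5 and 21.7 FPKM in kidney and was at 0 in liver, a difference of 4.51 (SE 0.13, limma adjusted p = 2.05e-15). CASR, the calcium-sensing receptor, had 3.02, 3.36 and 1.55 FPKM in kidney and CALB1, a calcium-binding protein of the distal convoluted tubule, had 4.76, 8.62 and 13.6 FPKM, and both were at 0 in liver. CASR was at 0 in the other tissues as well, so it passed the filter through kidney alone, which fixed its direction. WNK1, a kinase that regulates chloride cotransport, had 14.3, 7.88 and 10.8 FPKM in kidney and 5.50, 2.14 and 3.56 FPKM in liver, a difference of 1.37 (SE 0.30, limma adjusted p = 0.00159) that was lost with quantile scaling and in the fit of 6 libraries. WNK4 rested on 19 reads in kidney and 1 in liver, and SGK1, a kinase induced by aldosterone, on 18 and 0. 

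Proximal tubule and podocyte genes were sparser in the table. Of 9 proximal tubule genes tested, 4 were higher in kidney and 1, DPP4, was lower, against 12.7% of all genes higher and 5.47% lower. SLC7A8, a transporter of neutral amino acids, had 82.1, 82.9 and 93.8 FPKM in kidney and 0, 0 and 1.11 FPKM in liver, a difference of 6.09 (SE 0.38, limma adjusted p = 1.55e-10). SLC4A4, the sodium bicarbonate cotransporter, had 64.5, 58.05 and 66.5 FPKM in kidney and 6.46, 3.14 and 3.87 FPKM in liver, a difference of 3.59 (SE 0.33, limma adjusted p = 5.18e-08). SLC22A4, an organic cation and ergothioneine transporter, had 46.4, 46.9 and 47.3 FPKM in kidney and 3.35, 1.63 and 3.61 FPKM in liver, a difference of 3.68 (SE 0.72, limma adjusted p = 0.000578). In these 3 transporters the kidney and liver libraries did not overlap. The fourth, TMEM174, rested on 5 kidney reads. DPP4, a brush border peptidase that is also known from liver, had 16.9, 9.60 and 11.3 FPKM in kidney and 37.5, 54.7 and 44.7 FPKM in liver, a difference of -1.80 (SE 0.43, limma adjusted p = 0.00375) that was lost with TPM scaling and with a pseudocount of 0.1. Of 11 podocyte genes, 5 were higher and 1 was lower, against 12.7% of all genes higher and 5.47% lower. Their median difference was 0.71, or 0 with genes at 0 set to 3 reads per library. DACH1, a factor known in podocytes, had 21.01, 23.7 and 25.7 FPKM in kidney and 0.422, 0 and 0 FPKM in liver, a difference of 4.44 (SE 0.28, limma adjusted p = 1.99e-10). WT1, the Wilms tumour factor, rested on 9 kidney reads, and its call was lost with voom on recovered reads, in the fit of 6 libraries, and without kidney replicate 2 or 3 or any 1 liver library.

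**Figure D4:**
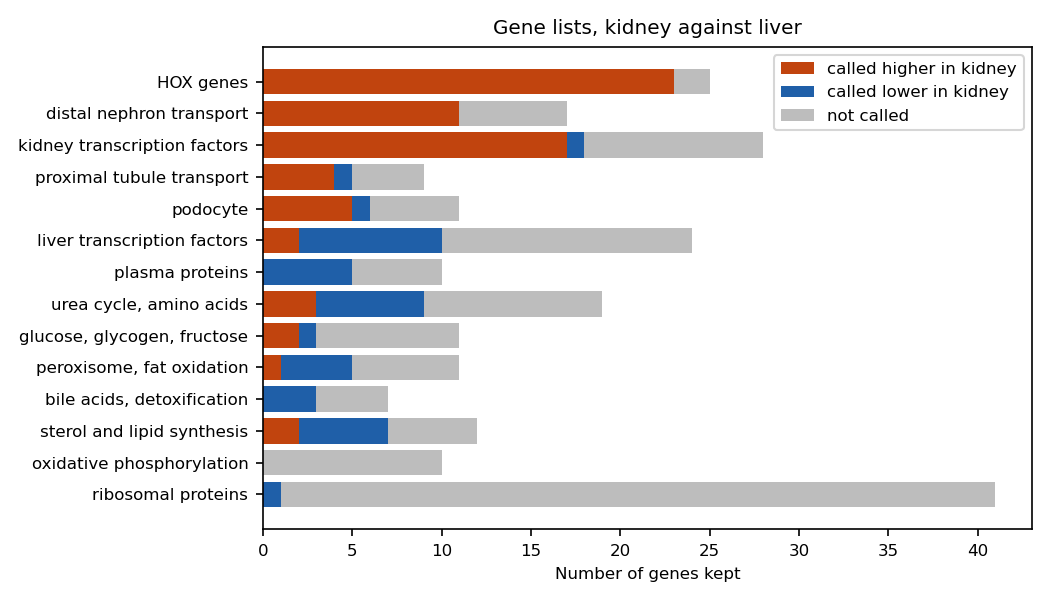
Number of tested genes called higher in kidney, called lower in kidney or not called, for 14 gene lists (horizontal axis, number of genes). HOX genes have 23 of 25 called higher, and plasma proteins have 5 of 10 called lower and none higher.

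On the liver side, factors of the hepatocyte were lower in kidney for 8 of 24 tested, against 5.47% of all genes lower, and 2 were higher. FOXA2, a forkhead factor of the liver, was at 0 in kidney and had 53.9, 45.6 and 63.7 FPKM in liver, at least 16.6-fold lower in kidney, a difference of -5.78 (SE 0.39, limma adjusted p = 4.87e-10). FOXA1, its relative, had 0, 0.727 and 0 FPKM in kidney and 24.5, 29.3 and 60.1 FPKM in liver. CEBPA, a leucine zipper factor of hepatocytes, had 11.5, 26.1 and 21.9 FPKM in kidney and 427, 536 and 437 FPKM in liver, a difference of -4.56 (SE 0.47, limma adjusted p = 2.92e-07). ONECUT1, also known as HNF6, was at 0 in kidney and had 10.99, 38.5 and 35.6 FPKM in liver, with liver replicate 1 the lowest of the 3. PROX1, a homeobox factor of hepatocytes and lymphatic vessels, had 5.53, 6.68 and 7.34 FPKM in kidney and 106, 46.5 and 93.6 FPKM in liver, a difference of -3.39 (SE 0.30, limma adjusted p = 2.67e-08). The 2 that were higher in kidney were regulators of mitochondrial genes. ESRRA, an orphan receptor, had 144, 163 and 154 FPKM in kidney and 53.8, 54.9 and 33.3 FPKM in liver, a difference of 1.71 (SE 0.27, limma adjusted p = 6.11e-05). PPARGC1A, its coactivator, had 17.9, 22.5 and 19.1 FPKM in kidney and 0.412, 5.603 and 0.888 FPKM in liver, a difference of 3.00 (SE 0.46, limma adjusted p = 4.39e-05).

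NRN1 and HAO1 had the largest negative differences of the whole comparison. NRN1, a small membrane-anchored protein first described in neurons, had 0, 1.15 and 2.12 FPKM in kidney and 4161, 4879 and 4006 FPKM in liver, a difference of -11.17 (SE 0.46, limma adjusted p = 2.24e-13). HAO1, the glycolate oxidase of liver peroxisomes, was at 0 in kidney and had 1985, 1766 and 2063 FPKM in liver, at least 378-fold lower in kidney. Among plasma proteins 5 of 10 tested were lower in kidney and none was higher, against 5.47% of all genes lower and 12.7% higher. FGA, the fibrinogen alpha chain, had 3.08, 0.796 and 0.735 FPKM in kidney and 205, 169.8 and 217 FPKM in liver, a difference of -6.40 (SE 0.42, limma adjusted p = 3.62e-10). IGF1, the growth factor that the liver sends into blood, had 0.242, 0.251 and 0.231 FPKM in kidney and 73.9, 87.2 and 69.3 FPKM in liver, a difference of -5.96 (SE 0.30, limma adjusted p = 5.58e-12). The other 3 were PLG, SERPINC1 and C1R, which rested on 24, 10 and 17 liver reads and none in kidney, and the C1R call was lost in the fit of 6 libraries and without liver replicate 2 or 3. GJB1, the gap junction protein connexin 32, had 13.9, 4.32 and 3.98 FPKM in kidney and 481, 483 and 399.8 FPKM in liver, a difference of -5.95 (SE 0.43, limma adjusted p = 1.65e-09).

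Of 19 amino acid and urea cycle genes tested, 6 were lower and 3 were higher in kidney, against 5.47% of all genes lower and 12.7% higher, so that the count of higher genes was near that over all genes. Their median difference was -0.03. BHMT, which remethylates homocysteine with betaine, was at 0 in kidney and had 17.4, 22.6 and 73.1 FPKM in liver, where replicate 3 was the highest. Outside liver, BHMT reached 1 FPKM only in stomach replicate 3. Like CPS1, it passed the filter through liver, which fixed its direction, and the 6 lower genes include both. GPT2, an alanine aminotransferase, had 4.67, 4.14 and 1.27 FPKM in kidney and 18.01, 42.2 and 23.98 FPKM in liver, a difference of -2.76 (SE 0.51, limma adjusted p = 0.000319). GLS2, the liver-type glutaminase, was at 0 in kidney and had 55.96, 83.4 and 42.2 FPKM in liver, a difference of -5.89 (SE 0.33, limma adjusted p = 2.48e-11). GATM, the first enzyme of creatine synthesis, had 101, 84.2 and 87.4 FPKM in kidney and 0, 6.28 and 1.74 FPKM in liver, a difference of 5.08 (SE 0.57, limma adjusted p = 9.54e-07). SLC6A8, the creatine transporter, had 26.95, 23.2 and 36.5 FPKM in kidney and 0, 1.16 and 0 FPKM in liver, a difference of 4.51 (SE 0.50, limma adjusted p = 6.83e-07), and was named after its values were seen. SLC38A3, a glutamine transporter of hepatocytes, had 1.95, 1.01 and 1.86 FPKM in kidney and 139, 191 and 130.2 FPKM in liver, a difference of -5.89 (SE 0.59, limma adjusted p = 1.78e-07). HIBADH, of valine breakdown, was called higher on 4 kidney reads alone, and voom on recovered reads did not call it.

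Lipid and carbohydrate genes made up 3 lists, read against 5.47% of all genes lower and 12.7% higher. In that of peroxisomal and mitochondrial fat oxidation, 4 of 11 were lower in kidney and 1 was higher, the second near the share of all genes. SCP2, a peroxisomal sterol carrier and thiolase, had 10.1, 24.6 and 11.7 FPKM in kidney and 362, 668 and 536 FPKM in liver, a difference of -5.05 (SE 0.65, limma adjusted p = 5.06e-06). LONP2, a peroxisomal protease, had 7.03, 7.59 and 5.55 FPKM in kidney and 31.6, 40.1 and 37.7 FPKM in liver, a difference of -2.28 (SE 0.29, limma adjusted p = 3.73e-06). ACSM3, a medium-chain acyl-CoA synthetase, went the other way, with 13.002, 24.5 and 29.2 FPKM in kidney and 0, 2.36 and 2.62 FPKM in liver, a difference of 3.27 (SE 0.41, limma adjusted p = 4.44e-06). In the sterol and lipid list, 5 of 12 were lower and 2 were higher, the second again near the share of all genes. Among the 5 was FADS1, which reached 1 FPKM outside liver only in stomach replicate 3, so that the filter fixed its direction. DGAT2, which makes triglycerides, had 117, 144 and 127 FPKM in kidney and 469, 558 and 501 FPKM in liver, a difference of -1.97 (SE 0.27, limma adjusted p = 1.31e-05). ABCA1, a cholesterol exporter, had 1.74, 3.89 and 2.21 FPKM in kidney and 22.98, 29.9 and 29.2 FPKM in liver, a difference of -3.01 (SE 0.35, limma adjusted p = 1.44e-06). HMGCS1, of cholesterol synthesis, was called higher at an adjusted p of 0.0486 with 12.1, 14.5 and 35.7 FPKM in kidney and 11.9, 9.36 and 0.799 FPKM in liver, where replicate 3 was the lowest. Its call was lost with voom, with TPM, median-ratio and quantile scaling, in the fit of 6 libraries, and without liver replicate 3 or kidney replicate 2 or 3. Of 11 genes of glucose and glycogen metabolism, 2 were higher and 1 was lower, both near the shares of all genes. GK, glycerol kinase, had 83.4, 103 and 109 FPKM in kidney and 16.6, 16.1 and 16.8 FPKM in liver, a difference of 2.50 (SE 0.40, limma adjusted p = 7.38e-05). PKM, the pyruvate kinase that hepatocytes largely replace by PKLR, had 25.1, 23.2 and 13.7 FPKM in kidney and 2.85, 0 and 1.54 FPKM in liver, a difference of 3.30 (SE 0.42, limma adjusted p = 5.06e-06). PYGL, liver glycogen phosphorylase, was at 0 in kidney and had 22.2, 14.95 and 3.69 FPKM in liver. Of 7 detoxification genes tested, ABCB4, CYP2R1 and CYP2E1 were lower in kidney and none was higher, again against 5.47% of all genes lower, and the ABCB4 call was lost in the fit of 6 libraries. CYP2E1 rested on 1 read in each liver library and was at 0 in all other tissues. Outside liver, ABCB4 reached 1 FPKM only in spleen replicate 3 and CYP2R1 only in stomach replicate 1. All 3 genes thus passed the filter through liver, which fixed their direction, and their count cannot be read against the share of all genes. CES1, ATP8B1 and CYP46A1 were at 0 in both organs and could not be called.

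Genes high in both kidney and liver were sought against the other 6 tissues. By the rule, a gene had to be called higher in kidney and in liver than the mean of those tissues, and each of its 2 means had to exceed the mean in every other tissue. This held for 118 of 4260 genes (2.77%). Called above each of the other 6 tissues, in kidney and in liver alike, were 21 genes (0.493%). The contrasts share the 18 libraries of the other tissues, so the count is that of the rule. Between the organs, 5 of the 118 were higher in kidney, 14 were lower and 99 were not called. Over all genes, 12.7% were higher and 5.47% were lower. The gaps to the next tissue ran from 9.54e-05 to 4.67 on the log2(FPKM + 1) scale, and SALL1 had the smallest, with a mean of 28.3 FPKM in kidney and 12.3 in liver, against 11.7 in brain.

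A1CF had 10.4, 10.2 and 11.2 FPKM in kidney, from 33, 31 and 37 reads, and 9.05, 20.5 and 17.3 FPKM in liver, from 18, 42 and 32 reads. It was at 0 in all 18 libraries of the other tissues. Its difference from the mean of those tissues was 3.53 (SE 0.17) in kidney and 3.98 (SE 0.17) in liver. A1CF was taken as the marker of the pair, so these values describe the choice and are no test of it. The SE includes 18 libraries at 0 and can be too small, as liver values ran from 9.05 to 20.5 FPKM. Kidney and liver libraries overlapped, and the difference between the organs was -0.45 (95% interval -0.91 to 0.01) with an adjusted p of 0.162. Partners of the editing complex did not follow this pattern. SYNCRIP had 347, 395 and 329.8 FPKM in kidney and 324, 313 and 335 FPKM in liver, and HNRNPAB, a nuclear ribonucleoprotein, had 296, 303 and 337 FPKM in kidney and 405, 376 and 431 FPKM in liver. None of the 4 genes of that list was called between the organs, and A1CF alone of them was high in both.

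ASS1, argininosuccinate synthase, had the largest gap of all, 4.67. It had 26.6, 52.2 and 37.4 FPKM in kidney and 26.7, 77.8 and 59.9 FPKM in liver, while its mean was 0.373 FPKM in aorta, 0.805 in spleen and 0 in the other 4 tissues. The enzyme serves the urea cycle in liver and arginine synthesis in kidney. PANK1, which starts coenzyme A synthesis, had 129.7, 158 and 188 FPKM in kidney and 151, 193 and 179 FPKM in liver, against 13.5 FPKM in heart as the next tissue. Its difference from the other 6 tissues, on which the rule had selected it, was 4.91 (SE 0.28) in kidney and 5.05 (SE 0.28) in liver. FGGY, a carbohydrate kinase, had 15.1, 14.001 and 11.4 FPKM in kidney and 15.6, 26.2 and 18.2 FPKM in liver. These 3 genes did not differ between the organs past the threshold, with differences of -0.41 (95% interval -1.33 to 0.51) for ASS1, -0.14 (95% interval -0.90 to 0.62) for PANK1 and -0.51 (95% interval -1.27 to 0.25) for FGGY.

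Some of the shared genes serve the breakdown of branched-chain amino acids through propionyl-CoA. PCCA and PCCB, the subunits of propionyl-CoA carboxylase, had 55.5, 62.4 and 58.3 FPKM and 244, 258 and 251 FPKM in kidney, and 52.9, 49.8 and 58.2 FPKM and 216, 296 and 265 FPKM in liver. ALDH6A1, which makes propionyl-CoA in valine breakdown, had 426, 477 and 464 FPKM in kidney and 302, 347 and 309 FPKM in liver, with stomach next at 110.2 ± 3.84 FPKM (SD, n = 3). MMUT, methylmalonyl-CoA mutase, was among the 118 genes but not the 21, with 16.4, 12.9 and 20.9 FPKM in kidney and 27.3, 28.9 and 24.1 FPKM in liver. The kidney and liver values of PCCA and PCCB overlapped, with differences of 0.13 (95% interval -0.52 to 0.78) and -0.03 (95% interval -0.74 to 0.68). Of the 19 tested genes of amino acid and urea metabolism, 8 were high in both organs, as were 3 of 11 for glucose metabolism and 3 of 11 for fat oxidation, against 2.77% of all genes. PC, pyruvate carboxylase of gluconeogenesis, had 16.1, 21.03 and 23.02 FPKM in kidney and 24.01, 32.8 and 16.99 FPKM in liver. ACSS2, which makes acetyl-CoA from acetate, had 37.3, 64.6 and 66.8 FPKM in kidney and 62.2, 51.8 and 28.7 FPKM in liver.

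Some genes of the shared set still differed between the organs. AHCY, which hydrolyses S-adenosylhomocysteine, had 29.1, 43.2 and 46.8 FPKM in kidney and 289, 311 and 392 FPKM in liver, so that it was high in both and lower in kidney, with a difference of -3.04 (SE 0.43, limma adjusted p = 1.58e-05). GLUD1, glutamate dehydrogenase, had 327, 335 and 371 FPKM in kidney and 1593, 1319 and 1197 FPKM in liver, a difference of -1.98 (SE 0.17, limma adjusted p = 1.81e-08), though a human retrocopy of it can share its reads. SARDH, sarcosine dehydrogenase, had 8.26, 6.41 and 7.23 FPKM in kidney and 10.9, 41.4 and 18.8 FPKM in liver, a difference of -1.38 (SE 0.35, limma adjusted p = 0.00566); liver replicate 2 was the highest, and the gene was not called without it, with TPM scaling, with voom or in the fit of 6 libraries. With SCP2, these were the 4 of the 21 called between the organs, and all 4 were lower in kidney. Over all genes, 5.47% were lower and 12.7% were higher. Others of the 21 were CHUK, SIAH2, IREB2, AIFM1, H2BC15 and DNAJA1. CHUK, a kinase of the NF-kappaB pathway, had 73.6, 79.6 and 88.3 FPKM in kidney and 87.7, 96.2 and 85.2 FPKM in liver, with stomach next at 30.2 ± 7.22 FPKM (SD, n = 3). AIFM1, a mitochondrial flavoprotein, had 139, 139 and 89.7 FPKM in kidney and 167, 139 and 137 FPKM in liver. H2BC15 has near-identical histone copies, and its value of 1201 FPKM in kidney and 1421 in liver is uncertain for that reason.

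**Figure D5:**
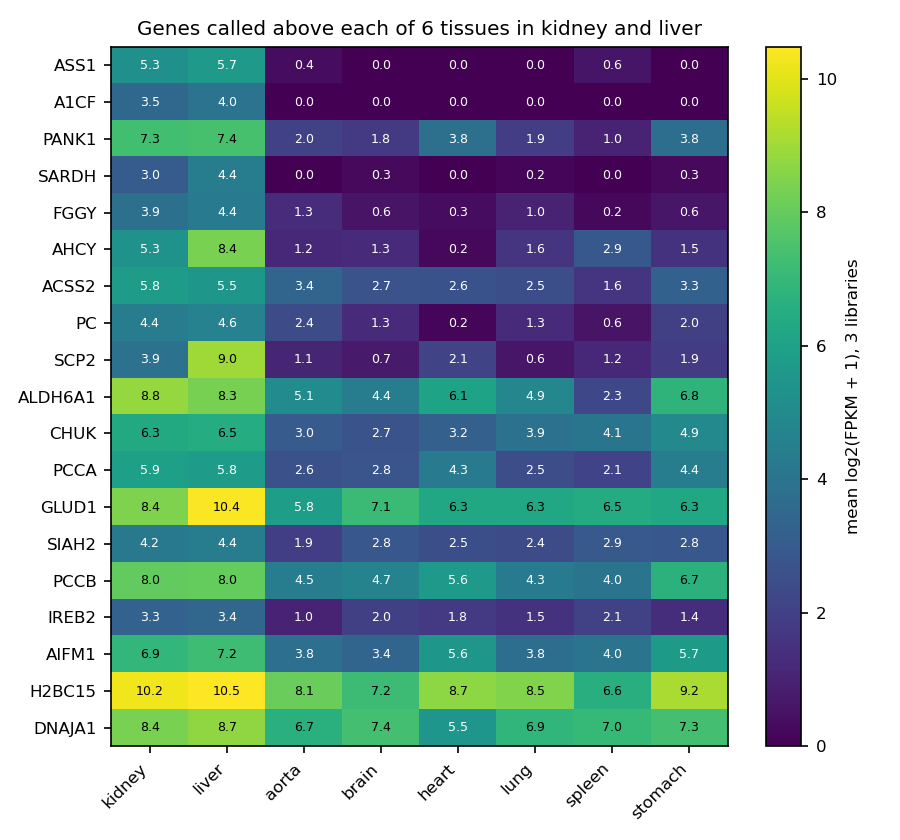
Mean log2(FPKM + 1) of 3 libraries in each of 8 tissues for 19 of the 21 genes called above each of the other 6 tissues in kidney and in liver, ordered by their gap to the next tissue. A1CF is at 0 in the 6 other tissues, and AHCY, SCP2, SARDH and GLUD1 have lower values in kidney than in liver.

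Among the 5 genes most like A1CF over the 8 tissue means were ASS1 (Pearson r = 0.996), SARDH (0.987), FGGY (0.977) and COPS2 (0.966). This is a description over 8 points, 2 of which set the pattern, and A1CF was at 0 in the other 6. COPS2, a subunit of the COP9 signalosome, had 226, 255 and 201 FPKM in kidney and 255, 248 and 275 FPKM in liver, while its means in the other tissues ran from 142 FPKM in lung to 162 in stomach. Of 8 tested genes known from textbooks to be used by hepatocytes and proximal tubule cells, 5 were high in both organs, against 2.77% of all genes. Among them were A1CF, ASS1, SARDH and ACSM3. The other 3, BHMT, CDH2 and GATM, were not. CDH2, N-cadherin, was at 0 in kidney and had 14.6, 14.2 and 20.3 FPKM in liver, a difference of -4.10 (SE 0.39, limma adjusted p = 8.59e-08).

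Promoters are shown for A1CF and ASS1, the leading shared genes, and for the 2 genes with the largest difference in each direction that had an entry in the RefSeq table, which had none for Nrn1 and Cps1. They are mouse sequences of GRCm38.p6 from 250 bases before to 50 after the gene start, 5′ to 3′ on the gene's strand. Capitals mark TGTTTAC, the core bound by forkhead factors such as FOXA2, and GTTAAT, part of the palindrome bound by the HNF1 factors, in either direction. A1cf lies at chr19:31868563-31868862, plus strand, Ass1 at chr2:31470020-31470319, plus strand, Kcnj1 at chr9:32393735-32394034, plus strand, Hoxd8 at chr2:74704365-74704664, plus strand, Hao1 at chr2:134554303-134554602, minus strand and Fga at chr3:83025903-83026202, plus strand.
A1cf: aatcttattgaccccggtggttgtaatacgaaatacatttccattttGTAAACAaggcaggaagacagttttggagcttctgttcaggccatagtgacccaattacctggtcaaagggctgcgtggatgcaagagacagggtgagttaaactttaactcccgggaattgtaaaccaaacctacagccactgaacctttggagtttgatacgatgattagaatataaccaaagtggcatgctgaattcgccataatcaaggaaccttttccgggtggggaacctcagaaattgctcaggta
Ass1: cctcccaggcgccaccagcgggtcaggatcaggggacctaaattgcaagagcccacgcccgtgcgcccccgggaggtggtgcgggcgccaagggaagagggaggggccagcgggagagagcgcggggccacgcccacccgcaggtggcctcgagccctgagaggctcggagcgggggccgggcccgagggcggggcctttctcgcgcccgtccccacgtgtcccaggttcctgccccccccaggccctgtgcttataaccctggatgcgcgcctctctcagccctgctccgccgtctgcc
Kcnj1: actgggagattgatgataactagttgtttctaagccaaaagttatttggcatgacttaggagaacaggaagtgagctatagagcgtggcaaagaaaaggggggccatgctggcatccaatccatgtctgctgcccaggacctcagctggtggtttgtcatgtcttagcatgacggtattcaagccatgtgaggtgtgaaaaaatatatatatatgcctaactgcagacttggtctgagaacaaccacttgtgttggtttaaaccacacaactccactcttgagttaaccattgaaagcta
Hoxd8: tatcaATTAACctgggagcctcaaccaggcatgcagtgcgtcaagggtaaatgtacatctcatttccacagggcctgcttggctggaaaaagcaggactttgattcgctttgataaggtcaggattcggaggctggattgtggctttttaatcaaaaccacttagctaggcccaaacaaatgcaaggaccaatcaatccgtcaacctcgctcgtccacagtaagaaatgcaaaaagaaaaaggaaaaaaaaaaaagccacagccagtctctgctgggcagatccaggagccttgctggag
Hao1: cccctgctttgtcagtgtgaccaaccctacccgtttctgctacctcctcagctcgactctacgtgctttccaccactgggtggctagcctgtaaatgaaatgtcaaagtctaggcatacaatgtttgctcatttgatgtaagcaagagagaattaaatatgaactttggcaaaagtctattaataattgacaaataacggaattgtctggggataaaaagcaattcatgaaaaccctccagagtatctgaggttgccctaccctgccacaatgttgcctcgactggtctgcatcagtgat
Fga: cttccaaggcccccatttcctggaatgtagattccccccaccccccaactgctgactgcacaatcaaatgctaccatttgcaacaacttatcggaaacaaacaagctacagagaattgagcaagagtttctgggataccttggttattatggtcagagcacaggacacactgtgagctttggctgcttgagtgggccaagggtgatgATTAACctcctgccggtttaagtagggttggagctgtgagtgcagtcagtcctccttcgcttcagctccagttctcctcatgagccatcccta
TGTTTAC was found once, in reverse as GTAAACA, beginning 203 bases before the start of A1cf. GTTAAT was found in reverse as ATTAAC, beginning 245 bases before Hoxd8 and 43 bases before Fga. Over all 32851 promoters of this length in the table, 3.65% held TGTTTAC and 7.1% held GTTAAT in either direction. A match is a description of letters and says nothing of binding. Only 75.4% of the genes tested had an entry of the same symbol, so shares over the called genes were not drawn.

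Lists of general cell function are given beside the 18.1% of all genes called in either direction. None of 10 nuclear genes of oxidative phosphorylation was called, with 0 higher and 0 lower, by limma on FPKM, by voom or in the fit of 6 libraries. Of 41 ribosomal protein genes, 1 was lower in kidney and their median difference was -0.51, or 0 with genes at 0 set to 3 reads per library. That gene, RPL12, had 0, 0 and 4.54 FPKM in kidney and 128, 14.7 and 16.3 FPKM in liver, where replicate 1 was the highest, from 1 and 21 reads in all, and the call was lost with voom, in the fit of 6 libraries, and without kidney replicate 1 or 2 or liver replicate 1. Of 13 clock genes, NR1D1, a repressor of the clock, was lower, with 357, 301 and 292 FPKM in kidney and 935, 608 and 494 FPKM in liver, a difference of -1.05 (SE 0.37, limma adjusted p = 0.0417), and the call was lost with TPM and quantile scaling, in the fit of 6 libraries, without any 1 of the kidney libraries and without liver replicate 1 or 2. Of 19 immediate early and heat shock genes, JUNB was lower, with 16.5, 5.11 and 92.8 FPKM in kidney and 131, 45.7 and 118 FPKM in liver. Kidney replicates spread widely for JUNB, and its call was lost with TPM scaling, with voom on recovered reads, in the fit of 6 libraries, and without kidney replicate 1 or 2 or liver replicate 1 or 3. With TPM scaling 2 other genes of this list were higher, and in the fit of 6 libraries 1 was. The 13 mitochondrially encoded genes of the table had 1 to 8 reads in each of the 6 libraries.

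Markers of other cells differed in both directions, and their counts are read against 12.7% of all genes higher and 5.47% lower. None of the 26 listed genes of adrenal, fat and pancreas was in the table. Of 7 endothelial genes tested, TEK and EHD4 were higher in kidney and none was lower, against 12.7% of all genes higher. EHD4 had 9.42, 6.82 and 11.7 FPKM in kidney and 4.48, 3.63 and 3.22 FPKM in liver, and its call was lost with voom, with median-ratio and quantile scaling, in the fit of 6 libraries and without kidney replicate 3. TEK, the angiopoietin receptor, had 3.16, 4.57 and 4.83 FPKM in kidney and was at 0 in liver, on 20 reads. The summed level of the 11 endothelial genes in the table ran from 70.6 to 178 FPKM over kidney libraries and from 33.7 to 122 over liver libraries, and 5 and 7 of them were at 0. Most of this sum was FLI1, the gene antisense to SENCR, with 165, 56.2 and 153 FPKM in kidney and 117, 30.1 and 89.9 FPKM in liver. The sum thus follows FLI1 and is no measure of endothelial cells. SPI1, a defining factor of myeloid cells, was the 1 myeloid gene tested of 4 in the table and was lower in kidney, with 3.90, 6.05 and 15.8 FPKM in kidney and 24.8, 49.7 and 20.02 FPKM in liver. The other 3 were at 0 in all kidney and liver libraries. Among markers of liver sinusoidal endothelium, 3 were tested. MAF, a leucine zipper factor, was higher in kidney, with 75.5, 94.2 and 73.3 FPKM in kidney and 15.5, 10.7 and 18.1 FPKM in liver, a difference of 2.40 (SE 0.25, limma adjusted p = 2.46e-07), and WNT2 was lower on 1 read in kidney and 9 in liver. Of 10 genes of stellate cells, fibroblasts and smooth muscle, COL1A1, a collagen chain, was higher on 30 reads in kidney and 4 in liver, and RELN and LHX2 were lower on 2 and 0 reads in kidney and 37 and 2 in liver. The share of that list that was higher was near that of all genes. Of 4 bile duct genes, ONECUT1 and SOX9 were lower, the second on 4 liver reads, against 5.47% of all genes lower. Of 6 lymphocyte genes, BCL11B was higher on 19 kidney reads, a share near the 12.7% of all genes. Calls of COL1A1, LHX2, SOX9 and WNT2 were lost in the fit of 6 libraries, and the WNT2 call was also lost without liver replicate 3. That of LHX2 was also lost without any 1 kidney library or liver replicate 1 or 2, and that of SOX9 without any 1 kidney library or liver replicate 2 or 3. The 5 sinusoidal genes in the table summed to 73.6 to 97.4 FPKM in kidney and 17.6 to 26.7 in liver, and 1 and 2 of them were at 0. Most of the kidney sum was MAF, while WNT2 went the other way, so the sum is no measure of sinusoidal cells. The 16 mesenchymal genes summed to 14.3 to 21.9 FPKM in kidney and 12.1 to 35.6 in liver, with overlap. The 7 bile duct genes summed to 1.66 to 4.47 FPKM in kidney and 10.99 to 44.6 in liver. Most of that liver sum was ONECUT1, which is also a hepatocyte factor, with a liver mean of 28.3 FPKM, so the sum is no measure of bile duct cells. The 7 lymphocyte genes summed to 2.74 to 4.58 FPKM in kidney and 0.913 to 1.45 in liver. Of 16 neuronal genes, 13 were at 0 in kidney and 14 in liver, and SYT1 alone was called, lower in kidney on 21 liver reads. TFRC, the transferrin receptor and the only erythroid gene tested, had 28.1, 30.4 and 23.4 FPKM in kidney and 3.88, 14.5 and 10.5 FPKM in liver, a difference of 1.56 (SE 0.39, limma adjusted p = 0.00541). The calls of TFRC and SPI1 were lost with voom and in the fit of 6 libraries. The part of other cells in the differences above was not tested.

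SENCR itself differed between the organs. It had 78.9, 31.2 and 102 FPKM in kidney, from 34, 13 and 46 reads, and 7.37, 17.9 and 15.9 FPKM in liver, from 2, 5 and 4 reads. The difference was 2.21 (SE 0.59, limma adjusted p = 0.00873), and all kidney values lay above the liver values. The call was lost without kidney replicate 3, without liver replicate 1 and in the fit of 6 libraries. FLI1, the antisense partner, had 165, 56.2 and 153 FPKM in kidney and 117, 30.1 and 89.9 FPKM in liver, a difference of 0.71 (SE 0.55, limma adjusted p = 0.43), and its libraries overlapped. Replicate 2 was its lowest in both organs, and within each replicate number the kidney value lay above the liver value. The labels do not say whether such libraries are paired. FLI1 was not called with replicate number as a block either. Without a stated strand setting, reads of SENCR and FLI1 where they overlap cannot be told apart. ETS1, the next gene tested along that chromosome, had 4.47, 5.14 and 3.80 FPKM in kidney and 3.16, 5.37 and 2.55 FPKM in liver, a difference of 0.26 (95% interval -0.73 to 1.25).

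Among further genes named after their values were seen, some had large differences outside the lists. FHL1, a LIM domain protein, had 642, 732 and 665 FPKM in kidney and 20.8, 10.7 and 7.93 FPKM in liver, a difference of 5.69 (SE 0.25, limma adjusted p = 4.55e-13). SFRP1, a secreted antagonist of WNT, had 68.2, 56.6 and 54.2 FPKM in kidney and 1.07, 0 and 0 FPKM in liver, a difference of 5.56 (SE 0.45, limma adjusted p = 9.09e-09). TIMP3, an inhibitor of matrix proteases, had 151, 154 and 167 FPKM in kidney and 2.08, 9.11 and 1.12 FPKM in liver, a difference of 5.29 (SE 0.51, limma adjusted p = 1.18e-07). IGFBP7, a secreted binding protein, had 677, 644 and 829 FPKM in kidney and 9.004, 123 and 0 FPKM in liver, where the 3 libraries spread from 0 to 123 FPKM, and the fit of 6 libraries did not call it. Lower in kidney was ADRA1B, the alpha-1B adrenergic receptor, with 2.02, 0.598 and 0.276 FPKM in kidney and 44.99, 57.6 and 37.1 FPKM in liver, a difference of -4.67 (SE 0.37, limma adjusted p = 5.73e-09). ADIPOR2, a receptor of adiponectin, had 18.7, 24.3 and 15.8 FPKM in kidney and 168, 208 and 249 FPKM in liver, a difference of -3.35 (SE 0.44, limma adjusted p = 7.23e-06). SOCS3, an inhibitor of cytokine signals, had 4.26, 2.21 and 6.11 FPKM in kidney and 91.4, 44.4 and 98.5 FPKM in liver, a difference of -3.92 (SE 0.41, limma adjusted p = 3.2e-07). SLC6A12, the betaine transporter, was at 0 in kidney and had 13.3, 9.95 and 12.1 FPKM in liver, at least 6.12-fold lower in kidney. KLF9, a target of glucocorticoids and one of the 118 shared genes, had 208, 199 and 205 FPKM in kidney and 208, 189.6 and 209 FPKM in liver, a difference of 0.01 (95% interval -0.51 to 0.54).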

How the data were processed

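Bulk RNA was measured in 24 libraries of 8 tissues, 3 each. Reads were processed with fastp, HISAT2 and HTSeq on the human build GRCh38.p13, per the submitters' processing notes. No version, annotation or strand setting is given in the sources used here. RNA was extracted with TRIzol, per the labels' protocols. The authors deposited FPKM for 7493 genes, with no further scaling seen in the values. The denominator is the reads assigned on the human build, so values depend on which genes aligned in each tissue.

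Values were analysed as log2(FPKM + 1), which understates the change of low genes. The filter asked for 1 FPKM or more in 3 or more libraries. A gene found only or nearly only in kidney or in liver passes through that organ, which fixes its direction. Examples are CASR, CPS1, BHMT, FADS1, ABCB4, CYP2R1 and CYP2E1. R 4.3.3 with limma 3.58.1 fitted the means of 8 tissues to all 24 libraries, with a mean-variance trend. Two-sided p-values over 4260 genes received Benjamini-Hochberg adjustment. The 24 libraries share 1 estimate of spread, which includes tissues where a gene is at 0 and can be too small for genes used in kidney or liver. The FPKM steps gave back whole reads for 7488 of 7493 genes (99.9%), taking values within a relative 1e-08 as whole. A fold against a tissue at 0 was taken against 3 reads per library.

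The members and gene lists were chosen with earlier results of these data known. Named were the 12 largest differences in each direction among called genes whose libraries did not overlap, up to 4 called members of each list per direction by level, all tested members of lists with under 8, the 20 largest gaps among genes high in both, the 5 genes most like A1CF, and SENCR, FLI1 and KCNJ1. Named outside this rule, after their values were seen, were PAX2, PAX8, CASR, CALB1, WNK1, WNK4, SGK1, ESRRG, SALL1, WT1, FOXA1, GPT2, SERPINC1, MMUT, H2BC15, KLF9, SLC6A8, the HOX genes not called, the hepatocyte genes at 0, and those so described. Some genes that the rule picks are not reported here. Python 3.11.15 with numpy 2.4.6, pandas 2.3.3 and matplotlib 3.10.9 was used. Alternatives were other pseudocounts, filters, scalings and variance settings, a replicate block, voom on recovered reads, a fit of 6 libraries, thinning, and leaving out each library; a minimum of 30 reads behind a call was added after seeing the data.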

Additional observations from a re-analysis of the deposited data

How the results depend on the processing

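Main counts were 540 higher and 233 lower genes in kidney against liver, and 118 high in both. With a pseudocount of 5, 298 were higher and 76 were high in both. Without the minimum difference, 354 were lower and 213 were high in both. In the fit of 6 libraries, 342 were higher and 149 were lower, of which 333 and 142 were also called in the fit of all 24. The rule of a call above each of the other 6 tissues left 21. Leaving out 1 library at a time gave 492 to 515 higher, 201 to 237 lower and 108 to 123 high in both. Fits with voom on recovered reads shared 433 of the higher and 208 of the lower calls, and 309 and 136 held in all 3 fits. With at least 30 reads, chosen after seeing the data, 409, 171 and 114 remained. Quantile normalization gave 396 higher and 315 lower, and the median of all genes moved to -0.08 with it and to -0.13 with voom from 0.09. The cause of these changes was not tested.

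Of the genes named, none that was called changed direction under any alternative. Calls were lost for 28 named genes with a pseudocount of 5, 22 in the fit of 6 libraries and 9 with voom, and 25 called named genes had under 30 reads. The replicate block gave 547 higher, 235 lower and 119 high in both. The labels do not say whether libraries of the same number are paired, and the main fit did not pair them. Their deviations correlated at 0.02, 0.04 and 0.02. Each library correlated best with its own number, which is a hint from the data and not from the design. Depth limits genes with few reads.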
